A study of Drosophila melanogaster with 6 samples.

Results

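Insulin and TOR signalling genes were examined in S2R+ cells depleted of Hakai. The set was chosen by name: InR, chico, Pi3K92E, Akt, foxo, Tor, raptor, S6k and Tsc1, of which 7 of 9 could be matched to a gene of the deposited counts. The choice was made with earlier results of these data known. InR, the insulin receptor, and S6k, the S6 kinase, had no matching identifier and were not analysed here. The 7 matched genes are 7 of 17559 listed genes, and all 7 were among the 7811 genes with enough reads to be tested. S2R+ is an embryo-derived Drosophila cell line with features of plasmatocytes, the phagocytic blood cells of the fly, and it expresses the Wnt receptor frizzled. Hakai KD cells received dsRNA against Hakai, an E3 ubiquitin ligase that belongs to the m6A mRNA methylation complex, and control KD cells received dsRNA against lacZ, a bacterial gene. Each group had 3 libraries of poly(A) RNA, and the labels give 10 μg of dsRNA in 3 treatments within 6 days for all of them. The methods give another amount of dsRNA, stated per number of cells. According to the methods, cells of both groups stood in serum-free medium with the dsRNA before serum was added back. The groups therefore share a serum withdrawal that ended before the cells were collected, and the labels name no treatment with insulin.

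Insulin-like peptides activate the insulin receptor, and chico, the insulin receptor substrate, passes the signal to a lipid kinase (PI3K) made of the catalytic subunit Pi3K92E and the regulatory subunit Pi3K21B. The lipid product of PI3K brings the kinases Akt and Pdk1 to the membrane, and active Akt keeps the transcription factor foxo out of the nucleus. Tsc1 and its partner gig (Tsc2) restrain the GTPase Rheb, which activates Tor complex 1, made of the kinase Tor and the scaffold raptor. Tor complex 1 promotes translation and growth and receives separate inputs from amino acids and energy status. Most of this control acts on the phosphorylation and location of proteins, and only transcript levels were measured here.

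The libraries held 16041353 to 17288912 counts, and the values below are normalised read counts, that is counts scaled to a common effective library size. Hakai itself (FBgn0032812) had 68.1, 72.6 and 77.8 normalised read counts in Hakai KD, against 296, 329 and 298 in control KD. Its log2 fold change was -2.08 ± 0.094 (SE, adjusted p = 1.8e-07, edgeR quasi-likelihood test with Benjamini-Hochberg adjustment), and the groups were far apart. The dsRNA template was amplified from Hakai (chromosome arm 2L, 19580612 to 19582474, minus strand, BDGP6.54) with a primer pair whose gene-specific parts are shown 5′ to 3′ because they mark the transcript that was targeted. No base is in capitals.
Hakai forward: ccttaagtggaaccacaaggtg
Hakai reverse: gtattgcgactgctgccagttgc

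Control KD replicate 1 stood apart from the other control libraries. Its chi-square statistic over gene counts was 11.4 and 14.7 per degree of freedom against control KD replicates 2 and 3, whereas these gave 2.25 between them and Hakai KD libraries gave 4.88 to 8.10. Against Hakai KD libraries, control KD replicate 1 gave 17.3 to 24.3, and control KD replicates 2 and 3 gave 9.34 to 10.8. Control KD replicate 1 thus differed more from the other controls than these did from the Hakai KD libraries. None of the insulin and TOR signalling genes was called without control KD replicate 1. Plasmatocyte markers were present, with a summed level of 15989 to 16439 normalised read counts in Hakai KD and 15745 to 16052 in control KD. Of the 9 markers, 8 passed the filter on low counts, and NimC1 was near 0. Of these 8 markers, 2 rose in Hakai KD, Hml by 0.56 and Pxn by 0.20 on the log2 scale (7.58% of all tested genes rose). The other 6 did not pass and had mixed signs. These were srp (-0.044), eater (-0.078), crq (-0.039), Sr-CI (0.056), Col4a1 (0.061) and vkg (0.092). The S2R+ receptor fz rose by 0.24. Summed fat body markers reached at most 3.15 in Hakai KD and 4.80 in control KD. Summed lamellocyte markers stood at 1389 to 1451 in Hakai KD and 1285 to 1387 in control KD (PPO3 and ItgaPS4, with atilla near 0), and crystal cell markers at 64.0 to 68.7 in Hakai KD and 77.9 to 88.0 in control KD (PPO2, with lz near 0). Germline markers summed to 3432 to 3455 in Hakai KD and 3546 to 3805 in control KD (mostly aub, with nos near 0), and muscle markers to 1696 to 1729 in Hakai KD and 1557 to 1724 in control KD (mostly Mef2, with Mhc near 0). Neuron markers summed to 332 to 481 in Hakai KD and 420 to 478 in control KD (mostly elav, with Syt1 and nSyb near 0). No tested marker of these other lineages was called, where 15.3% of all tested genes were. Whether the changes in these markers had a part in the results below was not tested.

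None of the 7 insulin and TOR signalling genes passed an adjusted p of 0.05 in the edgeR quasi-likelihood test, where 15.3% of all tested genes did (1195 of 7811). Fewer transcripts per cell and fewer expressing cells cannot be told apart in such bulk libraries. At an unadjusted p under 0.05 there were 2 of 7, Pi3K92E and foxo, beside 29.8% of all tested genes. DESeq2 likewise called 0 of 7 after adjustment. Log2 fold changes of the 7 genes ran between -0.080 and 0.20 with a median of -0.0050, and the median over all tested genes was 0.00058. The 95% intervals of the 7 genes, each taken singly and not adjusted, lay within 0.888-fold and 1.30-fold of control KD. Leaving out Hakai KD replicate 3 was the only omission of a library that gave a call, for Akt. Values of all 7 genes in single libraries spanned 91.8% to 119% of the control mean in Hakai KD and 95.4% to 106% in control KD.

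**Figure D1:**
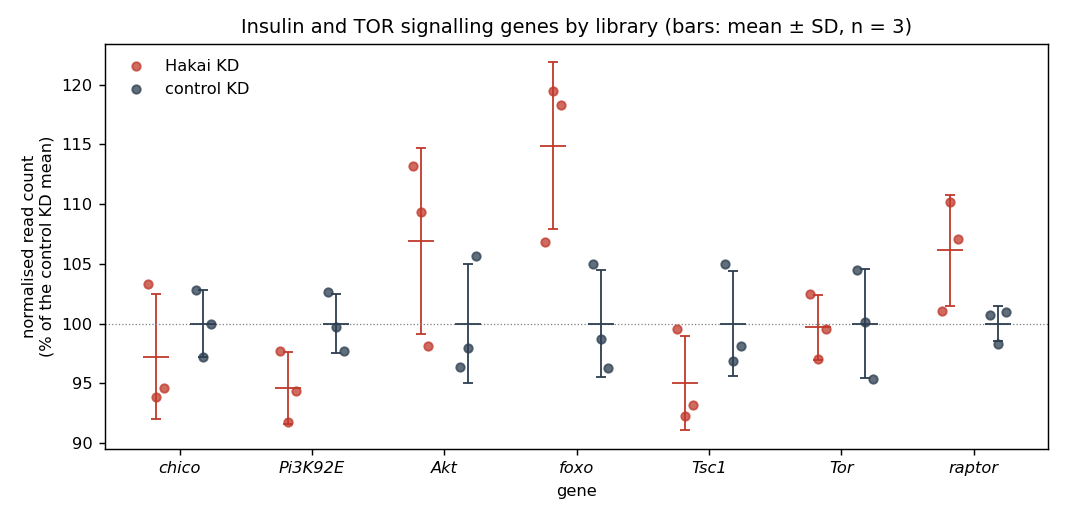
Normalised read counts of the 7 insulin and TOR signalling genes in each library as a percentage of the gene's control KD mean, Hakai KD left of control KD; points are libraries and bars are the mean ± SD (n = 3 each). Most points of both groups lie close to 100%, only foxo and raptor have groups that do not overlap, and no gene passed the adjusted test.

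chico (FBgn0024248, 2L, 10242512 to 10247078, minus strand) had 846, 769 and 775 normalised read counts in Hakai KD, against 842, 796 and 819 in control KD. Replicate 1 was the highest library of both groups and the groups overlapped. The change on the log2 scale was -0.040 ± 0.048 (SE, 95% interval -0.15 to 0.065, adjusted p = 0.61, edgeR). An antisense transcript, asRNA:CR44995, shares 380 exon bases with chico but held at most 1 count in any library.

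Pi3K92E (FBgn0015279, 3R, 20628972 to 20634732, minus strand) had 4354, 4088 and 4203 normalised read counts in Hakai KD, against 4573, 4441 and 4352 in control KD. Only Hakai KD replicate 1 and control KD replicate 3, which were nearly equal, kept the groups from separating. On the log2 scale the change was -0.080 ± 0.034 (SE, 95% interval -0.15 to -0.0059, adjusted p = 0.14, edgeR).

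Akt (FBgn0010379, 3R, 16099228 to 16105670, plus strand) had 4158, 4017 and 3606 normalised read counts in Hakai KD, against 3540, 3598 and 3883 in control KD. Hakai KD replicates 1 and 2 lay above every control library, whereas Hakai KD replicate 3 lay among them. With all libraries the log2 fold change was 0.097 ± 0.052 (SE, 95% interval -0.017 to 0.21, adjusted p = 0.24, edgeR). Without Hakai KD replicate 3 it was 0.15 ± 0.044 (SE, adjusted p = 0.039, edgeR), a call that rests on leaving out that library.

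foxo (FBgn0038197, 3R, 14056945 to 14087978, plus strand) was the least abundant of the genes and had the largest fold change among them. It had 186, 208 and 206 normalised read counts in Hakai KD, against 183, 172 and 168 in control KD, and the groups were apart by a few counts only. Its log2 fold change was 0.20 ± 0.083 (SE, 95% interval 0.018 to 0.38, adjusted p = 0.13, edgeR). Its adjusted p stayed between 0.097 and 0.31 when single libraries were left out (edgeR). At 162 to 212 raw counts, its interval is the widest of the 7.

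Among the TOR genes, Tsc1 (FBgn0026317, 3R, 24130307 to 24134654, plus strand) had 1464, 1357 and 1371 normalised read counts in Hakai KD, against 1544, 1425 and 1443 in control KD. The groups overlapped because Hakai KD replicate 1 exceeded control KD replicates 2 and 3. The log2 fold change was -0.074 ± 0.045 (SE, 95% interval -0.17 to 0.024, adjusted p = 0.29, edgeR).

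Tor (FBgn0021796, listed as mTor in the annotation, 2L, 13004480 to 13013197, plus strand) had 3542, 3355 and 3440 normalised read counts in Hakai KD, against 3612, 3461 and 3297 in control KD. These ranges nearly coincide. Its log2 fold change was -0.0050 ± 0.038 (SE, 95% interval -0.088 to 0.078, adjusted p = 0.95, edgeR), and its sign changed when control KD replicate 1 (0.027) or Hakai KD replicate 2 (0.012) was left out.

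The scaffold gene raptor (FBgn0029840, X, 6082634 to 6090201, minus strand) had 906, 987 and 960 normalised read counts in Hakai KD, against 903, 881 and 905 in control KD. Hakai KD replicate 1 and control KD replicate 3 were nearly equal, and the groups were separated only by that small margin. The log2 fold change was 0.086 ± 0.043 (SE, 95% interval -0.0074 to 0.18, adjusted p = 0.20, edgeR). Mipp2 lies on the same strand and shares 1669 exon bases with raptor, and the antisense transcript asRNA:CR44959 shares 241. Reads of these bases could not be assigned to 1 gene with certainty. However, asRNA:CR44959 held at most 1 count in any library. Mipp2 had 114 to 142 normalised read counts in Hakai KD and 114 to 147 in control KD (log2 fold change -0.073, adjusted p = 0.74, edgeR). Groups that did not overlap thus occurred for 2 of the 7 genes, both with the higher values in Hakai KD, where 17.0% of all tested genes showed this direction. None of the 7 lay wholly lower (17.9% of all tested genes, and 34.9% in either direction).

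Levels were compared between the genes as normalised read counts per kb of exon. Pi3K92E was the most abundant, with 871 ± 27.6 per kb in Hakai KD and 921 ± 23.0 in control KD (SD, n = 3 each). Akt came next with 803 ± 58.7 per kb in Hakai KD and 751 ± 37.5 in control KD. Their library ranges overlapped in Hakai KD (845 to 900 against 738 to 850 per kb) but not in control KD (899 to 945 against 724 to 794). Tor had 431 ± 11.7 per kb in Hakai KD and 433 ± 19.8 in control KD, and Tsc1 had 359 ± 14.9 in Hakai KD and 378 ± 16.5 in control KD. Lower still were chico with 223 ± 12.0 per kb in Hakai KD and 229 ± 6.39 in control KD, and raptor with 134 ± 5.85 in Hakai KD and 126 ± 1.87 in control KD. At the low end stood foxo with 48.4 ± 2.95 per kb in Hakai KD and 42.2 ± 1.89 in control KD. The order was the same in both groups, and apart from Pi3K92E and Akt no neighbours overlapped.

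**Figure D2:**
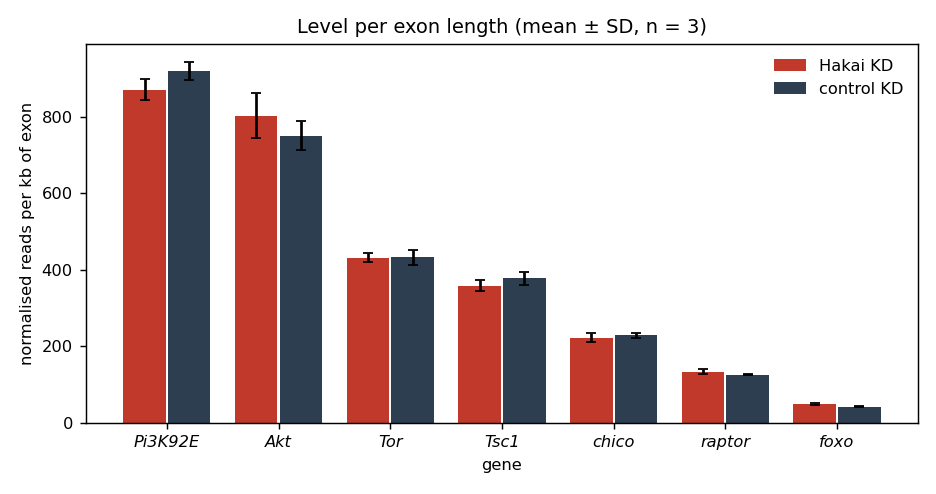
Normalised read counts per kb of exon for the 7 genes, ordered by level, with Hakai KD beside control KD. The order is the same in both groups, with Pi3K92E highest (871 per kb in Hakai KD, 921 in control KD) and foxo lowest (48.4 per kb in Hakai KD, 42.2 in control KD).

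Beyond these genes, 68 further genes of the pathway were listed by role, of which 65 were matched and 55 were tested. The lists were drawn up with earlier results of these data known and were given no test of their own. The shares below therefore only describe the listed genes. Of the 55, 11 rose, 5 fell and 39 did not pass the test in Hakai KD (20.0% higher and 9.09% lower, beside 7.58% and 7.72% of all tested genes). At an unadjusted p under 0.05 there were 25 of the 55, a larger share than the 29.8% of all tested genes (2327 of 7811). Their median log2 fold change was 0.026. The counts depended on single libraries. There were 5 higher and 3 lower calls without control KD replicate 2. Leaving out Hakai KD replicate 1 gave 6 higher and 2 lower, and leaving out Hakai KD replicate 2 gave 7 higher and 2 lower. Omission of any of the other libraries left 2 to 3 lower. Of the 16 called genes, 6 passed under every alternative fit (Lnk, Pdk1, step, trbl, RpS6 and path).

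The rises were most frequent among genes that act around PI3K and Akt. Of the 9 tested genes of this list, 7 rose and none fell (77.8% higher, beside 7.58% of all tested genes), with a median log2 fold change of 0.19, and all 9 had every Hakai KD library above every control KD library, as 17.0% of all tested genes did. This list was drawn up with earlier results of these data known and was given no test of its own. The list holds genes that promote and genes that restrain the signal, and both kinds rose. Without control KD replicate 2, 4 of the 9 passed, and 5 to 7 did when any other single library was left out. In the genes that rose, single libraries stood at 105% to 137% of the control mean in Hakai KD and at 96.7% to 105% in control KD.

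Pdk1 (FBgn0020386), the kinase that phosphorylates Akt in its activation loop, had 4846, 4737 and 4732 normalised read counts in Hakai KD, against 3961, 4019 and 4030 in control KD. The libraries of each group were tightly grouped, and the log2 fold change was 0.25 ± 0.029 (SE, adjusted p = 0.00018, edgeR). Pi3K21B, the regulatory partner of Pi3K92E, had 2585, 2454 and 2324 normalised read counts in Hakai KD, against 2110, 2143 and 2218 in control KD. It rose by 0.19 ± 0.041 on the log2 scale (SE, adjusted p = 0.012, edgeR), and the call was lost by a small margin without control KD replicate 2 (adjusted p = 0.053).

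Lnk, an adaptor that acts with chico below the receptor, had 2079, 2172 and 2118 normalised read counts in Hakai KD, against 1927, 1868 and 1871 in control KD (log2 fold change 0.17 ± 0.034, SE, adjusted p = 0.0067, edgeR). The Arf exchange factor step, which promotes insulin signalling, had 6194, 5887 and 5885 in Hakai KD, against 5218, 5155 and 5246 in control KD (0.20 ± 0.032, adjusted p = 0.0017, edgeR). Neither call was lost under any alternative. The other adaptor of the list, dock, did not pass the test (log2 fold change 0.093, adjusted p = 0.18, edgeR).

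Genes that restrain the same branch were among those that rose. The pseudokinase trbl, which binds Akt and blocks its activation, had 832, 928 and 906 normalised read counts in Hakai KD, against 742, 731 and 701 in control KD (log2 fold change 0.29 ± 0.050, SE, adjusted p = 0.0027, edgeR). wdb, a regulatory subunit of protein phosphatase 2A that opposes Akt, had 6401, 6290 and 5969 in Hakai KD, against 5776, 5648 and 5701 in control KD. Its rise of 0.12 ± 0.033 on the log2 scale (SE, adjusted p = 0.028, edgeR) was lost without Hakai KD replicate 1 (adjusted p = 0.094), Hakai KD replicate 2 (0.11), control KD replicate 2 (0.11) or control KD replicate 3 (0.062). It was lost with all libraries too by the likelihood ratio test of edgeR (0.052) and with scaling by size alone (0.11).

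The kinase sgg (GSK3), a substrate of Akt, had 2459, 2513 and 1991 normalised read counts in Hakai KD, against 1793, 1789 and 1939 in control KD. Hakai KD replicate 3 lay close to the highest control library. The log2 fold change was 0.34 ± 0.074 (SE, adjusted p = 0.011, edgeR), and the call was lost without Hakai KD replicate 1 (adjusted p = 0.053), Hakai KD replicate 2 (0.054) or control KD replicate 2 (0.057). sgg shares 1470 exon bases with lncRNA:CR45197 on the same strand.

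**Figure D3:**
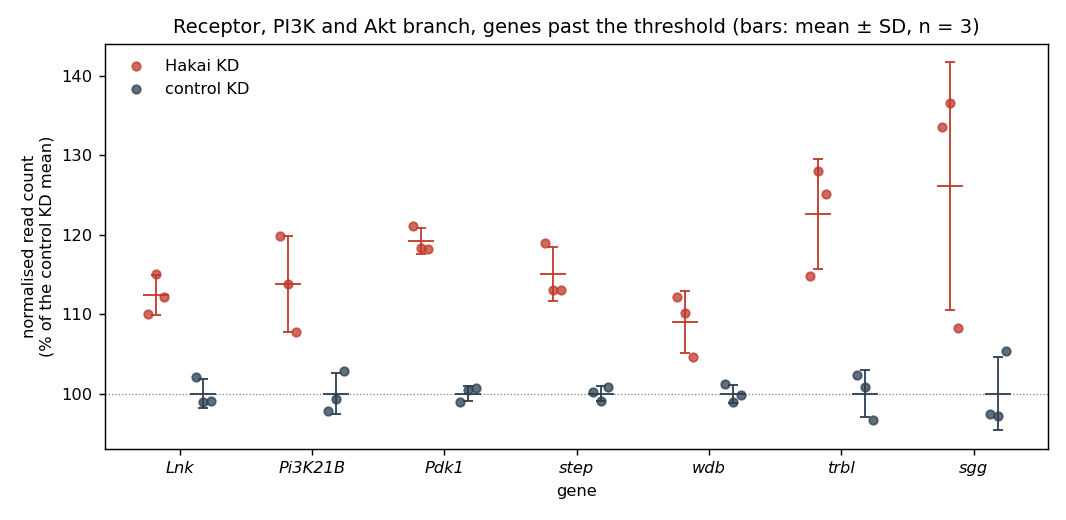
Normalised read counts of the genes acting around PI3K and Akt that rose, in each library as a percentage of the control KD mean, Hakai KD left of control KD; bars are the mean ± SD (n = 3 each). Hakai KD points stand at 105% to 137% of the control mean and control KD points at 96.7% to 105%.

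Partners of Tsc1, Tor and raptor in the Tsc, Rheb and Tor complexes gave no call either. None of the 7 tested genes of this list passed the edgeR test (1 at an unadjusted p under 0.05, and 0 adjusted by DESeq2), where 15.3% of all tested genes passed and 29.8% did so unadjusted, and their log2 fold changes lay between -0.090 and 0.080. gig, the GTPase-activating partner of Tsc1, had 1485, 1485 and 1510 normalised read counts in Hakai KD, against 1601, 1602 and 1564 in control KD. Its groups did not overlap, with a log2 fold change of -0.090 and an adjusted p of 0.10 (edgeR), and it passed only when libraries were scaled by size alone (adjusted p = 0.038). rictor, the scaffold of Tor complex 2, had 1428, 1373 and 1418 in Hakai KD, against 1431, 1417 and 1352 in control KD (0.0064, adjusted p = 0.94, edgeR). Tctp, which has been linked to Rheb, was the most abundant gene of the list and had a log2 fold change of 0.046 (adjusted p = 0.42, edgeR).

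Ratios between partner genes were compared within each library, for 4 pairs. Pi3K92E over Pi3K21B was 1.68, 1.67 and 1.81 in Hakai KD, against 2.17, 2.07 and 1.96 in control KD, so that every Hakai KD library had fewer catalytic reads per regulatory read. The log2 difference was -0.27 (two-sided exact permutation test over samples, p = 0.1, adjusted p = 0.2), and 0.1 is the smallest p that 3 against 3 libraries allow. Thor over eIF4E1, an inhibitor over its target, averaged 0.063 ± 0.0094 in Hakai KD and 0.083 ± 0.0085 in control KD (SD, n = 3 each, log2 difference -0.41, exact permutation p = 0.1, adjusted p = 0.2). The groups of both ratios did not overlap. raptor over rictor averaged 0.68 ± 0.042 in Hakai KD and 0.64 ± 0.025 in control KD (log2 difference 0.078, exact permutation p = 0.2, adjusted p = 0.27, n = 3 each). Tsc1 over gig averaged 0.94 ± 0.043 in Hakai KD and 0.93 ± 0.038 in control KD (0.016, exact permutation p = 0.7, n = 3 each), and its sign changed without Hakai KD replicate 1 (-0.022) or control KD replicate 2 (-0.012).

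**Figure D4:**
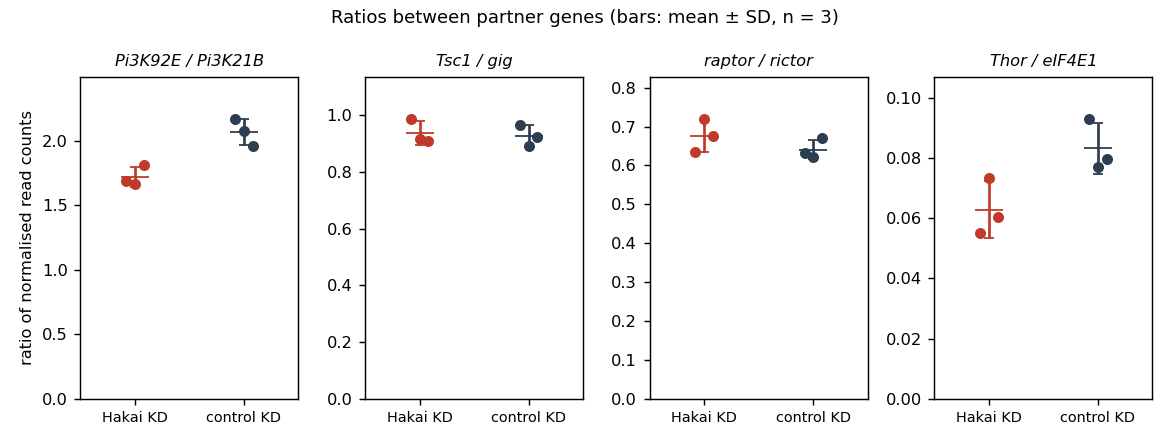
Ratio of normalised read counts between 4 pairs of partner genes in each library, Hakai KD left of control KD, each axis starting at 0; bars are the mean ± SD (n = 3 each). Pi3K92E over Pi3K21B and Thor over eIF4E1 are lower in every Hakai KD library, with an exact permutation p of 0.1, and the groups of the other pairs overlap.

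Of 9 tested genes that act below Tor complex 1, 2 rose and 1 fell, with a median log2 fold change of 0.083 (7.58% of all tested genes rose and 7.72% fell). RpS6, the ribosomal protein phosphorylated by S6 kinase, had 21744, 24736 and 24336 normalised read counts in Hakai KD, against 19597, 20105 and 20387 in control KD (0.24 ± 0.047, SE, adjusted p = 0.0065, edgeR). snoRNA:Or-aca2 lies within 142 of its exon bases on the same strand. Tif-IA, an initiation factor of RNA polymerase I, rose by 0.11 ± 0.032 (SE, adjusted p = 0.037, edgeR), a call that was lost when any single library was left out (adjusted p 0.057 to 0.11). With all libraries it was also lost with DESeq2 (adjusted p = 0.054), the likelihood ratio test of edgeR (0.080), scaling by size alone (0.14), no filter (0.058) and a replicate block (0.061). Thor, the eIF4E-binding protein that represses translation, had 315, 408 and 342 normalised read counts in Hakai KD, against 493, 405 and 436 in control KD. Hakai KD replicate 2 slightly exceeded the lowest control library, so that the groups overlapped. The log2 fold change was -0.32 ± 0.097 (SE, adjusted p = 0.044, edgeR). The call was lost on leaving out Hakai KD replicate 1 (adjusted p = 0.16, edgeR), Hakai KD replicate 3 (0.080), control KD replicate 1 (0.14) or control KD replicate 3 (0.079), and with a replicate block (0.069). eIF4E1, the cap-binding factor that Thor inhibits, did not pass the test (log2 fold change 0.083, adjusted p = 0.089, edgeR).

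Genes of amino acid sensing and transport included 4 of the 5 that fell. Of 20 tested genes, 4 fell and 1 rose, with a median log2 fold change of -0.057, where 7.72% of all tested genes fell and 7.58% rose. Only 1 fall was called without Hakai KD replicate 2, and 2 were called when any other single library was left out or with DESeq2. path, an amino acid transporter that promotes growth, had 664, 626 and 637 normalised read counts in Hakai KD, against 795, 854 and 857 in control KD. This was the strongest fall of the pathway, by 0.38 on the log2 scale (SE 0.047, adjusted p = 0.00036, edgeR), and it was kept under every alternative. The transporter mnd had 1163, 1137 and 1164 in Hakai KD, against 1267, 1283 and 1383 in control KD (-0.18 ± 0.042, SE, adjusted p = 0.013, edgeR), and without Hakai KD replicate 2 its adjusted p was 0.055.

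RagC-D, a GTPase that brings Tor complex 1 to the lysosome, had 830, 816 and 840 normalised read counts in Hakai KD, against 906, 888 and 942 in control KD (log2 fold change -0.14 ± 0.040, SE, adjusted p = 0.038, edgeR). Lamtor1, which anchors the Rag GTPases there, had 442, 427 and 425 in Hakai KD, against 510, 479 and 483 in control KD (-0.19 ± 0.052, adjusted p = 0.031, edgeR). Both were lost with DESeq2 (adjusted p = 0.21 and 0.19) and when any single library was left out (adjusted p 0.057 to 0.12 for RagC-D and 0.052 to 0.096 for Lamtor1). hppy, a MAP4K-type kinase that responds to amino acids, was the gene of the list that rose, with 2619, 2500 and 2518 in Hakai KD, against 2366, 2264 and 2280 in control KD (0.14 ± 0.034, adjusted p = 0.015, edgeR). The call was lost without Hakai KD replicate 1 (adjusted p = 0.056, edgeR) or control KD replicate 2 (0.067), and with scaling by size alone (0.068). Lamtor2 was listed at 0 in all libraries, and all of its 2533 exon bases are shared with CG30120 on the same strand. The most abundant gene of the list, Sec13, had a log2 fold change of -0.036 and did not pass the test.

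Of the 6 energy and stress genes, SNF4Agamma, the gamma subunit of AMP-activated kinase, rose by 0.11 ± 0.033 (SE, adjusted p = 0.048, edgeR, where 7.58% of all tested genes rose), and its adjusted p was 0.079 to 0.17 when any library other than control KD replicate 1 was left out. With all libraries that call was also lost with DESeq2 (adjusted p = 0.13), the likelihood ratio test of edgeR (0.077), scaling by size alone (0.21), no filter (0.083) and a replicate block (0.066). AMPKalpha, the catalytic subunit, had a log2 fold change of 0.054 and did not pass the test. Among 5 tested genes known as foxo targets, step rose, Thor fell, and bmm (log2 fold change 0.0063), Ilp6 and Lip4 did not pass, beside 7.58% higher and 7.72% lower of all tested genes. The median of these 5 genes was 0.0063.

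Among the ligands and binding proteins, 8 of 10 were too low to be tested, and Ilp1, Ilp3, Ilp4 and Ilp5 had 0 counts in all libraries. A count of 0 allows up to 3 counts, which is 0.174 to 0.187 CPM in either group and covers counting error only. Ilp6, the insulin-like peptide with enough counts to be tested, had 292, 297 and 294 normalised read counts in Hakai KD, against 311, 301 and 288 in control KD. ImpL2, a secreted protein that binds insulin-like peptides, was more abundant with 23719, 24451 and 23963 in Hakai KD, against 23976, 23626 and 24433 in control KD. The groups of both genes overlapped, with log2 fold changes of -0.026 and 0.0020 and no call. ImpL2 shares 1651 of its 2667 exon bases with CG46460 on the same strand.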

How the data were processed

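The authors mapped the reads with STAR 2.5.1b and counted them per gene with featureCounts 1.5.1 (versions per the labels). They deposited raw counts, 1 table per library, without normalization or pooling. Their methods name single reads of 85 bases, a directional library kit and Ensembl release 90. The strand setting of the counting is not given in the sources used here. The libraries are biological replicates according to the paper, and p-values measure the spread between them. According to its methods, the Hakai KD libraries and samples of another series were compared with the same controls. A difference in preparation between the groups, if any, could not be told apart from the knockdown.

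The deposited counts were analysed in R 4.3.3 with edgeR 4.0.16 (filterByExpr with a minimum count of 10 and a minimum total of 15, TMM factors, quasi-likelihood test over the 6 libraries without covariates, Benjamini-Hochberg adjustment over 7811 genes, threshold 0.05). Standard errors are approximate and were taken from the F statistic (size of the log2 change over the root of F). DESeq2 1.42.0, limma 3.58.1 (voom) and other scalings and filters served as alternatives. Gene names, positions and exon lengths came from Ensembl release 115 (BDGP6.54), which gave 17253 of 17559 identifiers a symbol. Identifiers of InR, S6k, PRAS40 and Maf1 found no match, nor did the name susi.

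Members and lists were chosen with earlier results of these data known. Named were all members, the called genes of the lists, the most abundant gene of each list that was not called, and the partners gig, rictor, Pi3K21B and eIF4E1. Genes most like a called member were to be named too, but no member was called. A gene of the lists is counted but not reported here by name. Ilp6, Lip4, Lamtor2, the insulin-like peptides at 0 and the genes of the closing observations were named after their values were seen.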

Additional observations from a re-analysis of the deposited data

How the results depend on the processing

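Over all tested genes, 1195 were called (49.5% of them higher), against 708 when control KD replicate 2 was left out, 740 when Hakai KD replicate 2 was, and between 708 and 1014 when any single library was left out. Of the 7 insulin and TOR signalling genes, 0 to 1 were called higher when a library was left out (Akt, without Hakai KD replicate 3) and 0 lower. With all libraries, no alternative called any. The log2 fold change of Tor ran from -0.038 to 0.027 and the log2 ratio difference of Tsc1 over gig from -0.022 to 0.046 when a library was left out. Of the further pathway genes, 11 were called higher and 5 lower, against 7 and 8 when libraries were scaled by size alone, 3 lower with DESeq2, and 5 to 12 higher and 2 to 3 lower when a library was left out. Scaling by size alone moved the median log2 fold change of all genes to -0.035 and the share of higher calls to 28.9% (374 higher, 922 lower). DESeq2 called 810 genes in all. The replicate numbers did not pair the samples: same-numbered deviations correlated at -0.070, -0.033 and -0.074, and 0 of 3 Hakai KD libraries correlated best with their own number. With a replicate block, 1152 genes were called, 0 of the 7 genes and 15 further pathway genes, and Thor (adjusted p = 0.069), Tif-IA (0.061) and SNF4Agamma (0.066) were no longer called, while Myc (0.050) and scyl (0.043) were (edgeR). Of the 16 called pathway genes, 9 passed in every alternative that used all libraries. With 3 libraries a group, the median standard error of a log2 fold change over all tested genes was 0.052, which limits how small a change could be called.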

Other observations

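Hakai KD replicate 3 lay below the other Hakai KD libraries in several genes of the wider pathway, which were picked out after their values were seen. scyl, a REDD-type inhibitor of Tor signalling induced by stress, had 994, 1066 and 526 normalised read counts in Hakai KD, against 415, 639 and 579 in control KD. Its log2 fold change was 0.67 (adjusted p = 0.061, edgeR) with all libraries and 0.92 (adjusted p = 0.00014) without Hakai KD replicate 3. The related gene chrb had 258, 249 and 177 in Hakai KD, against 191, 194 and 200 in control KD, and its log2 fold change was 0.23 (adjusted p = 0.24, edgeR) with all libraries and 0.38 (adjusted p = 0.011) without that library. Myc, a growth-promoting transcription factor, had 3712, 3524 and 2502 in Hakai KD, against 2235, 2687 and 2585 in control KD, with log2 fold changes of 0.38 (adjusted p = 0.052, edgeR) with all libraries and 0.53 (adjusted p = 7.7e-05) without it. The likelihood ratio test of edgeR called Myc (adjusted p = 0.017) and scyl (0.021) with all libraries, as did the fits with no filter and with a replicate block, but DESeq2 (0.22 for Myc and 0.29 for scyl), limma-voom and the remaining alternatives with all libraries did not. Myc shares 3754 exon bases with the antisense gene CG12535. For sgg the log2 fold change was 0.34 with all libraries and 0.43 (adjusted p = 3.2e-05, edgeR) without Hakai KD replicate 3. The library was not left out on any other ground, and what sets it apart in these genes was not tested.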
